A study of Mus musculus with 4 samples.

Results

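The genes described here are 9 sensors and transducers of the innate response to foreign nucleic acid, out of 34866 genes in the deposited table: Ifih1, Ddx58, Dhx58, Mavs, Irf3, Irf7, Irf9, Stat2 and Ifnar1. They were chosen by symbol, with each Ensembl identifier matched without its version to the GENCODE M21 annotation (mouse build GRCm38), and all 9 were found. The RNA came from primary cultures of neural stem and progenitor cells, which were taken from mouse embryos at E11.5 (dorsal telencephalon) and grown for 5 days as floating neurospheres with 20 ng/ml of basic fibroblast growth factor. The shControl group (2 libraries, genotype labelled wild type) received 1 lentiviral vector, CS-EG-shControl, at a multiplicity of infection of 30. The triple knockdown group (2 libraries) received 3 vectors together at 10 each, with the hairpin against Phf21b in pCS-EG and the hairpins against Zfp7 and against Zfp57 each in pLV-EG. Cells of both groups therefore carried lentivirus at a total dose of 30, all 4 libraries carry the same batch label, and no library without virus was analysed here. The groups also differ in the number of vectors and in their backbone (a pLV vector only in the triple knockdown), which cannot be told apart from the hairpins' targets in any difference below. The labels do not say that replicates came from separate cultures or litters, so the spread behind every p-value is that of these libraries and may be technical.

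RIG-I-like receptors are helicases in the cytosol that bind viral RNA, above all double-stranded RNA and RNA with an uncapped triphosphate end. RIG-I (Ddx58) and MDA5 (Ifih1) signal through MAVS on the mitochondrial surface to the transcription factors IRF3 and IRF7, which switch on interferon genes, while LGP2 (Dhx58) lacks the signalling domain and modulates the others. Secreted type I interferon binds a receptor with the subunits IFNAR1 and IFNAR2, and the activated factor ISGF3, which contains STAT2 and IRF9, binds the interferon-stimulated response element (ISRE) of its target genes, among which are several of the sensors and IRF7 itself.

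In the triple knockdown, Irf9 was the 1 member that rose, 2.72-fold, and the other 6 members with enough reads to test did not pass. Of all 14050 tested genes, 0.541% were called higher, 0.826% lower and 1.37% in either direction (edgeR quasi-likelihood test, Benjamini-Hochberg adjusted p under 0.05). Of the 9 members, 7 passed the filter on low counts and 2, Ifih1 and Irf7, did not. In bulk RNA, fewer cells of a type and less RNA per cell cannot be told apart.

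Total estimated counts were between 14694387 and 20779211 per library, and genes of the mitochondrial DNA took 30.3% and 33.9% of them in shControl against 26.6% and 28.5% in the triple knockdown. Irf9 had the same log2 fold change, 1.44, with these genes left out. Markers of neural stem and progenitor cells were present in every library, with Vim between 259 and 337 CPM and Pax6 between 23.3 and 28.1 CPM (CPM are counts relative to library totals scaled by edgeR's TMM factors). None of the 3 targeted transcripts passed the test (edgeR adjusted p = 0.341 for Zfp57, 0.644 for Phf21b and 0.800 for Zfp7): Zfp57 measured 14.6 and 11.8 CPM in shControl against 10.7 and 9.32 CPM, Phf21b 7.25 and 7.36 CPM against 5.49 and 6.45 CPM, and Zfp7 1.68 and 2.27 CPM against 1.96 and 0.977 CPM. Of 16 markers of microglia and other myeloid cells, 10 were tested and 0 passed (edgeR). Their summed level was 41.9 and 43.5 CPM in shControl and 44.4 and 38.5 CPM in the triple knockdown. Csf1r was at 0 in both shControl libraries and at 0.0533 and 0.167 CPM in the triple knockdown libraries. Lyz2 and Ptprc were the most abundant of the list and differed in direction. Lyz2 measured 16.5 and 14.2 CPM in shControl against 12.7 and 9.71 CPM. Ptprc measured 5.36 and 10.2 CPM against 12.6 and 10.5 CPM. Tyrobp (5.71 and 5.93 CPM against 6.18 and 4.63 CPM) and Cd68 (5.71 and 4.66 CPM against 4.85 and 5.28 CPM) were present in every library. Of 7 erythroid markers 5 were tested and 1 was called higher, with a summed level of 25.8 and 28.1 CPM against 40.1 and 38.4 CPM. Of 6 neuronal markers, 2 were called lower, with a summed level of 667 and 611 CPM against 504 and 500 CPM. Of 8 markers of plasmacytoid dendritic and lymphoid cells, 4 were tested and 0 were called, with a median log2 fold change of 0.60, a summed level of 51.2 and 61.6 CPM against 56.8 and 55.1 CPM, and Nkg7 at 0. This summed level was not split by gene and does not show that such cells were present. In that list 3 of 8 genes were higher and 0 lower with no overlap between groups. Of all tested genes, 19.6% were higher and 21.7% lower in this sense. In lists not tested in full, the marker counts include genes with too few reads to test and are not directly comparable with these shares. The same counts were 1 higher and 5 lower of 8 neural stem and progenitor markers, and 0 and 5 of 6 neuronal markers. They were 3 and 4 of 16 myeloid, 3 and 0 of 7 erythroid, 2 and 0 of 7 endothelial, and 2 and 2 of 7 mesenchymal and meningeal markers. Of the tested markers of endothelial (3) and mesenchymal and meningeal cells (7), 0 were called. The part of these markers in the results below was not tested.

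The levels of the 9 genes spanned more than 2 orders of magnitude in shControl cells, with Irf3 and Ifnar1 above all others and Ifih1 and Irf7 below them. Levels are compared between genes as CPM per kilobase of the mean length of a gene's protein-coding transcripts, as mean ± SD of 2 libraries. Irf3 was highest at 12.5 ± 1.63 CPM per kilobase, followed by Ifnar1 at 2.77 ± 0.365 and Irf9 at 1.07 ± 0.207. These 3 levels did not overlap between neighbours in the order. Stat2 (0.607 ± 0.0964), Ddx58 (0.581 ± 0.157), Mavs (0.560 ± 0.105) and Dhx58 (0.400 ± 0.184) followed, each overlapping the next. Ifih1 (0.0401 ± 0.0134) and Irf7 (0.0225 ± 0.0319) were at the bottom and overlapped each other. Over all 4 libraries the mean of Irf3 lay at percentile 79.5 of the tested genes, Ifnar1 at 52.6, Irf9 at 45.2, Ddx58 at 20.7, Mavs and Stat2 at 15.1 and Dhx58 at 6.2. In the triple knockdown Irf9, at 2.96 ± 0.211 CPM per kilobase, stood second, overlapping Ifnar1 (2.70 ± 0.177). The order in the middle depends on the length used: with merged exon length Irf9 held rank 5 in shControl, at 0.420 ± 0.081, below Mavs and Stat2, while Irf3 and Ifnar1 stayed first and second.

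**Figure D1:**
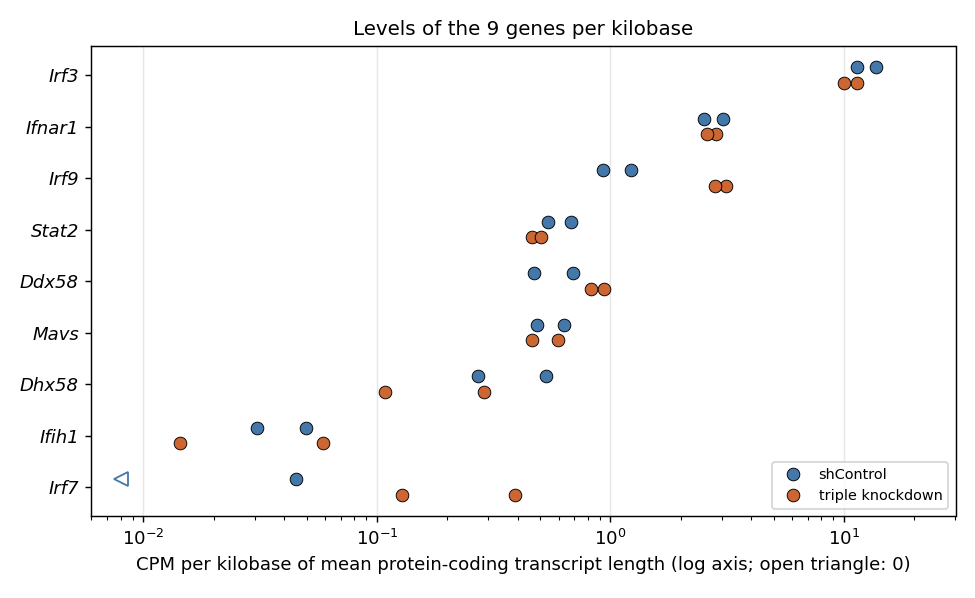
Levels of the 9 genes in each library, in CPM per kilobase of mean protein-coding transcript length on a log axis, ordered by the shControl mean. Points are single libraries, blue for shControl and orange for triple knockdown, and an open triangle marks a library at 0; Irf3 lies above all other genes, and Irf9 is the gene whose orange points moved from the level of about 1 to that of about 3.

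The promoters of these genes differ in whether they hold the letters of an interferon response element, so the matches are shown here before the values. RefSeq promoter windows (GRCm38.p6, 250 bases before to 50 bases after a transcript start) were available for 8 members in 9 windows, Irf9 having 2. They were searched on both strands for the ISRE core (GAAA, any 2 bases, GAAA, which reads TTTC, any 2 bases, TTTC on the opposite strand) and for the STAT-binding GAS element TTCNNNGAA, which reads the same on both strands. The ISRE core was in the windows of 3 members, Ifih1, Ddx58 and Stat2, and in 3.44% of all 32851 windows of the table. The GAS element was in the window of Ifnar1 and in 8.30% of all windows. Matched letters are in capitals in the following stretches, each written 5′ to 3′ on the strand of its gene; they lie at chr2:62646206-62646235 (minus strand), chr4:40239804-40239833 (minus strand), chr10:128270266-128270295 (plus strand) and chr16:91485200-91485229 (plus strand). 
Ifih1, ISRE core: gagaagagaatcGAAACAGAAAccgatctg
Ddx58, ISRE core: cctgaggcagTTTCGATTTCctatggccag
Stat2, ISRE core: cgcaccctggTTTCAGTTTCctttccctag
Ifnar1, GAS: ggcgggggcgTTCACGGAAggggcggggcg
The match of Ifih1 starts at base 33 and that of Ddx58 at base 3 of the transcript, whereas those of Stat2 and Ifnar1 start 222 and 5 bases before it. Of these 4 genes, Ddx58, Stat2 and Ifnar1 did not pass the test, and Ifih1 had too few reads for it. A match is a description of the letters and not a bound site.

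Irf9, the gene that was called, held neither set of letters in either of its windows. Its RefSeq starts at 55603985 and 55604579 on chromosome 14 lie 414 and 1008 bases downstream of the first base of the gene in GENCODE M21 (55603571). The first window begins at 55603735, so the sequence before that outermost start and the first bases of the gene were not searched. The stretch of 250 bases before the downstream start is shown because it belongs to the gene that changed. It lies at chr14:55604329-55604578 on the plus strand.
Irf9, before the downstream start: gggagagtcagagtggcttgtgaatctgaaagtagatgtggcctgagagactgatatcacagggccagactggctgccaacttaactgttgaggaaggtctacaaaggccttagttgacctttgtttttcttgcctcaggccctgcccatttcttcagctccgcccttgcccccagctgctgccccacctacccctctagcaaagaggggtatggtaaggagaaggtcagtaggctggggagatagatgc
The windows of Mavs, Irf3 and Irf7 held neither set of letters, and Dhx58 was not matched to a window.

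Among the 3 RNA sensors, Ifih1 was the least abundant and had too few reads to test, and Ddx58 and Dhx58 did not pass. Per kilobase, Ddx58 and Dhx58 overlapped in shControl, and their order there turned with merged exon length (0.247 for Ddx58 against 0.295 for Dhx58). Ddx58 (ENSMUSG00000040296.15, chromosome 4, 40203773 to 40239828), which encodes RIG-I, measured 2.08 and 1.41 CPM in shControl against 2.81 and 2.48 CPM in the triple knockdown. Both triple knockdown libraries lay above both shControl libraries. The ratio was 1.48-fold with a 95% interval of 0.908 to 2.40 (edgeR adjusted p = 0.558 at a log2 fold change of 0.56, SE 0.35). These values rest on 18.8 to 52.6 estimated reads per library.

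Dhx58 (ENSMUSG00000017830.15, chromosome 11, 100694884 to 100704271), the gene of LGP2, measured 0.650 and 1.28 CPM in shControl against 0.693 and 0.261 CPM in the triple knockdown. The groups overlapped, since the first triple knockdown library lay above the first shControl library, and replicate 2 of each group carried the extremes. The log2 fold change of Dhx58 was -0.91 (SE 0.61; 95% interval -2.12 to 0.31; edgeR adjusted p = 0.597). Between 4 and 17 reads supported each library, and the estimate was -1.81 once triple knockdown replicate 1 was left out and -0.43 once replicate 2 of that group was. Leaving out shControl replicate 1 gave -1.37, and leaving out its replicate 2 gave -0.39. A small share of its exonic bases, 4.31%, overlaps the antisense gene Dhx58os, and no source used here says that the reads or the counting kept strand, so reads of such pairs cannot be told apart.

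Ifih1 (ENSMUSG00000026896.14, chromosome 2, 62595798 to 62646255), the gene of MDA5, had 3 reads in each shControl library against 5 and 1 in the triple knockdown. That is 6 reads in each group, a ratio of 1.02 after scaling, with an exact 95% interval from 0.273 to 3.82 that covers counting error only. Ifih1 was thus near the limit of detection in every library, where a count of 0 allows a level of up to 0.139 to 0.225 CPM. A difference of up to several-fold in Ifih1 was not detectable at this depth.

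The adaptor and the factor that act directly below the sensors did not pass the test. Mavs (ENSMUSG00000037523.13, chromosome 2, 131234063 to 131248025) measured 1.44 and 1.88 CPM in shControl and 1.76 and 1.37 CPM in the triple knockdown. Its groups overlapped, with a log2 fold change of -0.06 (95% interval -0.87 to 0.76; edgeR adjusted p = 0.977). Irf3 (ENSMUSG00000003184.15, chromosome 7, 44997648 to 45002848), the constitutively present interferon regulatory factor, measured 12.1 and 14.6 CPM in shControl against 12.2 and 10.6 CPM in the triple knockdown. With 163 to 261 reads per library Irf3 was the best measured of the 9 genes, and its interval was the narrowest: a ratio of 0.862 with a 95% interval of 0.672 to 1.11 (edgeR adjusted p = 0.707). Of its exonic bases, 2.56% overlap the antisense gene Bcl2l12.

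Irf7 (ENSMUSG00000025498.15, chromosome 7, 141262706 to 141266481) encodes the factor that interferon itself induces and that amplifies interferon production. It had 0 and 1 reads in shControl against 4 and 10 in the triple knockdown, or 0 and 0.0751 CPM against 0.213 and 0.651 CPM. Both triple knockdown libraries lay above both shControl libraries. With 1 read against 14, the ratio of Irf7 was 14.3 with an exact 95% counting interval of 2.18 to 605, which does not include the spread between libraries. Irf7 did not pass the filter on low counts; with no filter its adjusted p was 0.351 (edgeR, log2 fold change 3.53, a value that depends on the prior count). Even in the triple knockdown its level was 0.259 ± 0.186 CPM per kilobase, below that of Irf3 in the same libraries.

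Downstream of secreted interferon, 1 of the 3 members changed. Ifnar1 (ENSMUSG00000022967.12, chromosome 16, 91485238 to 91507441), the receptor subunit, measured 7.17 and 5.95 CPM in shControl and 6.69 and 6.10 CPM in the triple knockdown, and both triple knockdown values lay between the shControl values. The ratio of Ifnar1 was 0.98 with a 95% interval from 0.723 up to 1.32 (edgeR adjusted p = 0.972). Stat2 (ENSMUSG00000040033.16, chromosome 10, 128270559 to 128292849), the STAT that pairs with IRF9, measured 2.37 and 2.97 CPM in shControl against 2.03 and 2.21 CPM. Both triple knockdown libraries lay below both shControl libraries, with a ratio of 0.797 and a 95% interval of 0.499 to 1.27 (log2 fold change -0.33; edgeR adjusted p = 0.781).

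Irf9 (ENSMUSG00000002325.15, chromosome 14, 55603571 to 55610030), the DNA-binding subunit of ISGF3, measured 2.57 and 1.95 CPM in shControl and 6.57 and 5.94 CPM in the triple knockdown. The lower triple knockdown library was thus more than 2-fold above the higher shControl library. The log2 fold change of Irf9 was 1.44 (SE 0.26; edgeR adjusted p = 0.000226), a ratio of 2.72 with a 95% interval of 1.89 to 3.92. The values rest on 55.3 and 26.0 estimated reads in shControl and 123 and 91.1 in the triple knockdown. Irf9 was called in 12 of 12 alternative settings, with log2 fold changes from 1.30 to 1.67 and adjusted p-values from 7.5e-05 to 0.0422, the highest without triple knockdown replicate 1. Of its exonic bases, 2.28% overlap Rnf31 on the same strand, and 4.24% of its transcripts' 31-mers occur in another gene.

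**Figure D2:**
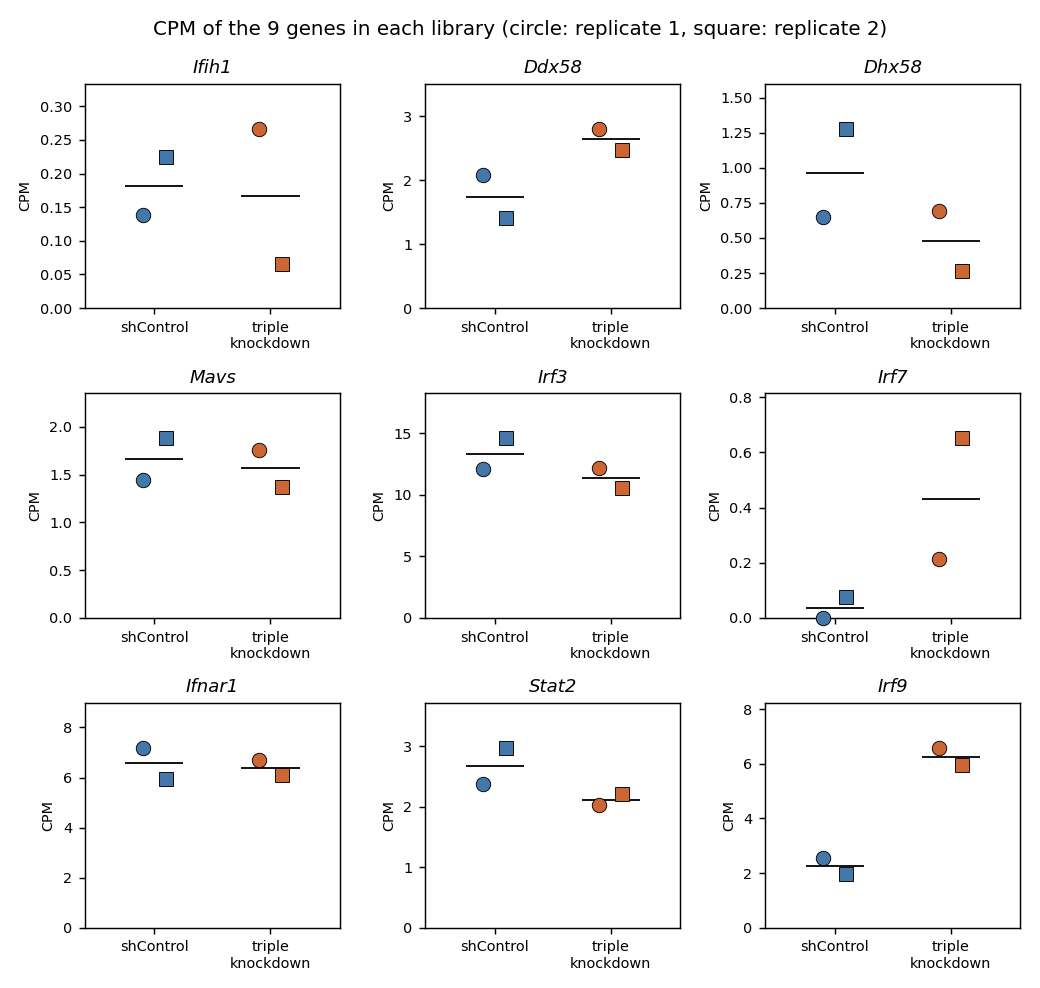
CPM of each of the 9 genes by group, 1 panel per gene with its own axis from 0; circles are replicate 1, squares replicate 2 and horizontal lines the mean of 2 libraries. The groups are clearly apart for Irf9, they do not overlap for Ddx58, Irf7 and Stat2, and they overlap for the other 5 genes.

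Over the 7 tested members, the groups did not overlap for 2 in the higher direction (Irf9 and Ddx58) and for 1 in the lower (Stat2), against 19.6% and 21.7% of all tested genes (41.3% in either direction). A share of 2 or 1 in 7 is near that background, so the lack of overlap of Ddx58 and Stat2 is no result about them. The median log2 fold change of the 7 was -0.06, beside -0.01 over all tested genes. None fell (edgeR; 0 at an unadjusted p under 0.05, which 6.85% of all tested genes reached as lower, and 0 by DESeq2 and limma-voom). By DESeq2 and by limma-voom 1 member was called higher, again Irf9 (adjusted p = 0.0161 and 0.00139).

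**Figure D3:**
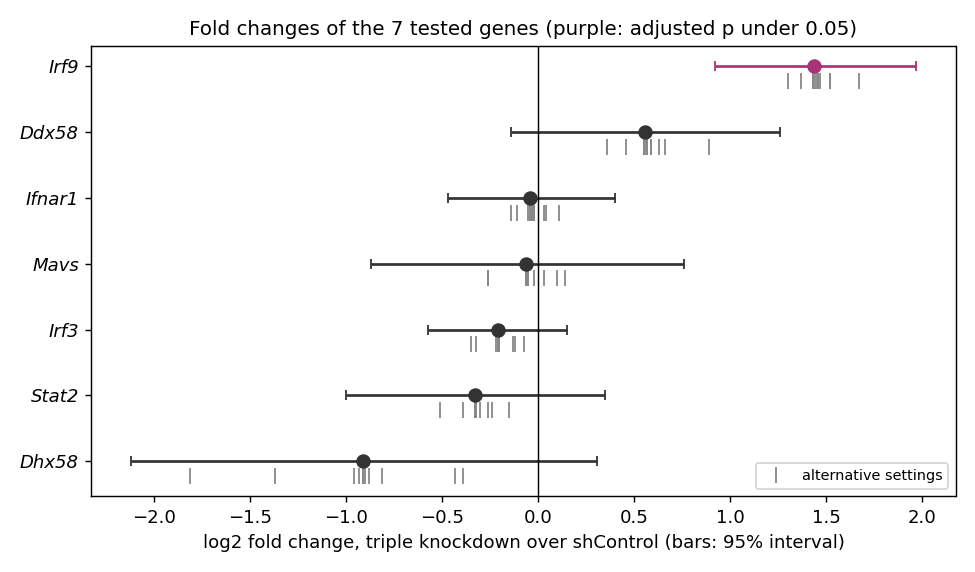
Log2 fold changes of the 7 tested genes, triple knockdown over shControl, with 95% intervals from edgeR; grey ticks under each gene are the estimates under the alternative settings. The interval of Irf9 lies above 0 (0.92 to 1.97), and those of the other 6 genes include 0, the widest being that of Dhx58.

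Transcripts of Irf9 were compared with those of Stat2, its partner in ISGF3, within each library, a comparison chosen after the values were seen. Per kilobase, the ratio of Irf9 to Stat2 was 2.26 and 1.37 in shControl against 6.75 and 5.58 in the triple knockdown. The size of the ratio depends on the length used: with merged exon length it was 1.19 and 0.724 against 3.57 and 2.95. The ratios did not overlap, and the geometric mean was 3.49-fold higher, but 2 libraries against 2 cannot reach an exact permutation p below 0.333, which is the value here (two-sided).

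Transcripts of the interferons themselves were almost absent in all 4 libraries. Of 21 interferon genes, 15 had no read in any library, and none reached 10 reads or could be tested. The 15 alpha and beta interferon genes together had 0 reads in both shControl libraries against 7 and 1 in the triple knockdown. These 8 reads were assigned to Ifnb1, Ifna2, Ifna13 and Ifna16. The alpha genes are near-identical copies, so reads may be divided among them by the quantifier. Ifnk and Ifng together had 7 and 2 reads in shControl and 0 in both triple knockdown libraries. A library at 0 allows a level of up to 0.139 to 0.225 CPM per gene, for counting error only.

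Elsewhere in the pathway between nucleic acid and interferon, the lists held few or no called genes. Of 20 further RNA and DNA sensors 13 were tested, and 0 rose or fell (edgeR; 1 at an unadjusted p under 0.05, which 12% of all tested genes reached in either direction; median log2 fold change 0.09). The most abundant were the RNA-binding protein Hnrnpa2b1, at 858 and 769 CPM in shControl against 715 and 936 CPM, and the helicase Ddx3x, at 112 and 113 CPM against 93.8 and 115 CPM. The groups overlapped for both genes. Of 26 adaptors, ubiquitin ligases and kinases 18 were tested, and 0 rose or fell (edgeR; 2 at an unadjusted p under 0.05; median -0.01). Tomm70a, a mitochondrial import receptor that binds MAVS, measured 36.8 and 33.4 CPM against 32 and 37.5 CPM. Traf5 measured 15 and 24.1 CPM against 26.4 and 22.4 CPM and was called only without shControl replicate 2 (log2 fold change 0.72, edgeR adjusted p = 0.00226, against 0.34 and 0.405 with all libraries).

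The other regulatory factors were likewise below the threshold. Of 11 further interferon regulatory factors and NF-kB subunits 8 were tested, and 0 rose or fell (edgeR; 0 at an unadjusted p under 0.05), with a median log2 fold change of -0.38. That median was -0.11 when genes had to reach 1 CPM in 2 libraries, and -0.18 with replicate 2 of either group left out. Nfkb1 measured 2.65 and 2.57 CPM in shControl against 2.51 and 3.26 CPM. Irf2, which competes for the same response elements, measured 2.93 and 2.93 CPM against 2.51 and 1.82 CPM. Of 10 further receptors, Janus kinases and STATs 9 were tested, and 0 rose or fell (edgeR; 1 at an unadjusted p under 0.05; median 0.03). The kinase Jak2 measured 12 and 11.3 CPM against 11.6 and 12.3 CPM. Ifngr2, a subunit of the receptor for interferon gamma, measured 11.2 and 10.4 CPM against 11.6 and 7.90 CPM.

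Among 25 negative regulators 20 were tested, 1 rose and 0 fell (edgeR; 3 at an unadjusted p under 0.05 in either direction; median -0.08). Of all tested genes, 0.541% were called higher and 12% reached that unadjusted p. The gene that rose was Usp18, whose protein binds IFNAR2 and dampens receptor signalling, from 0.186 and 0.150 CPM to 2.24 and 3.13 CPM (edgeR adjusted p = 9.66e-07; the log2 fold change was 3.90, SE 0.57). In reads, that is 4 and 2 against 42 and 48. Usp18 is also among the interferon-stimulated output genes below. Without shControl replicate 2, Irf2bp1, named after its values were seen, was also called, as lower (log2 fold change -0.97, edgeR adjusted p = 0.002). The 12 enzymes that degrade or edit a cell's own nucleic acids were all tested, and 0 rose or fell (edgeR; 0 at an unadjusted p under 0.05; median 0.06). Rnaseh2c and Rnaseh2b, subunits of the nuclease that removes RNA from DNA hybrids, measured 86.1 and 84.4 CPM against 102 and 95.3 CPM, and 70.3 and 67.5 CPM against 76.8 and 77.7 CPM. Of the exonic bases of Rnaseh2c, 24.8% overlap the antisense gene Kat5. In the pathway lists where edgeR called 0 genes, DESeq2 and limma-voom also called 0.

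The genes listed as interferon-stimulated were the part of the pathway with more calls. Of 48 interferon-stimulated output genes, 6 of them members of the set described here, 34 were tested, 10 rose, 0 fell and 24 did not pass (edgeR), with 18 at an unadjusted p under 0.05 (12% of all tested genes) and a median log2 fold change of 0.82. That is 29.4% called higher, beside 0.541% of all tested genes. The list was drawn up with earlier results of these data known and is not independent evidence of direction. Of the 4 tested members on this list, 1 rose (Irf9), and of the 30 tested genes that are not members, 9 rose and 0 fell, with a median of 0.95. The smallest p-values belonged to Ifi27, Rtp4, Bst2, Isg15, Usp18 and Mx2, each with a log2 fold change of at least 2.48 and so above that of Irf9. Over all 34 tested genes of the list, 28 had a log2 fold change above 0 and 6 below. Mx2 rested on 8 and 5 reads in shControl and was called in 11 of 12 alternative settings. Of the exonic bases of Rtp4, 13.9% overlap Gm45338. Without triple knockdown replicate 1 the number that rose was 7, and by DESeq2 it was 8.

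**Figure D4:**
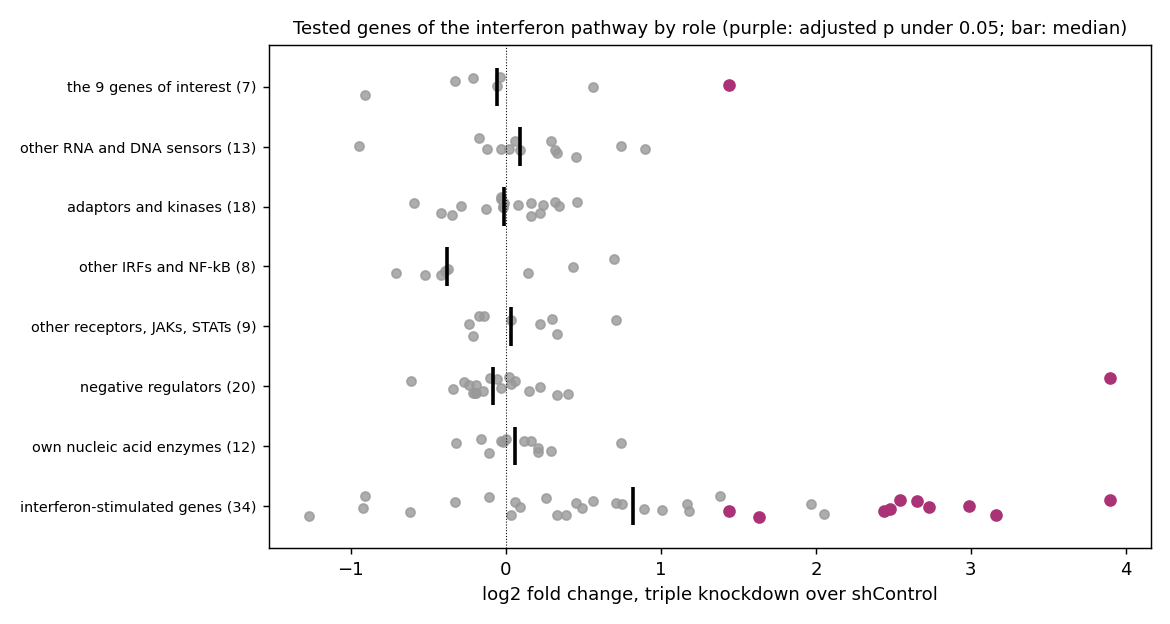
Log2 fold changes of the tested genes of each pathway list, triple knockdown over shControl; each point is a gene, purple where the adjusted p was under 0.05, and the black bar is the list's median. The numbers of tested genes stand in brackets; purple points are Irf9 among the 9 genes, Usp18 among the negative regulators, and 10 interferon-stimulated genes, which include both.

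Among tested genes whose CPM averaged 1 or more over the 4 libraries, the 3 with profiles closest to that of Irf9 were A930003A15Rik, Nfkbie and Ccnb1ip1. Likeness was the Euclidean distance between log2 CPM values centred on each gene's mean, and the distances were 0.051, 0.187 and 0.298. Because these genes were picked for likeness to Irf9 in the same 4 libraries, their differences between groups follow from that choice. Their values are a description only. A930003A15Rik measured 0.882 and 0.676 CPM in shControl against 2.35 and 2.21 CPM (edgeR adjusted p = 0.0549), and 23.3% of its exonic bases overlap Gm27883 or the antisense gene Gm49598. Nfkbie, which encodes an inhibitor of NF-kB, measured 0.790 and 0.601 CPM against 1.93 and 2.08 CPM (edgeR adjusted p = 0.0926). Ccnb1ip1 measured 1.49 and 1.28 CPM against 3.36 and 3.91 CPM (edgeR adjusted p = 0.0163) and was called in 9 of 12 alternative settings, and 12.4% of its exonic bases overlap Rpph1.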

How the data were processed

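Estimated counts for each gene, with no normalization, are what the authors deposited, in 1 table; Salmon and the mouse builds GRCm38 and mm10 are named in the submitters' processing notes. No source used here gives the Salmon version or the annotation release. Between 23.1% and 25.1% of values were not whole, and these deposited estimated counts were rounded for testing. Of 34866 identifiers, 34652 matched GENCODE M21. Genes were tested with edgeR 4.0.16 (R 4.3.3): TMM factors, filterByExpr with a minimum count of 10 (14050 genes kept), a robust quasi-likelihood F test, two-sided, with Benjamini-Hochberg adjustment and a threshold of 0.05. Intervals are 95% intervals from the SE. The script was tested on simulated data. Alternatives used DESeq2 1.42.0, limma 3.58.1, other scalings and filters, a replicate block and each library left out. The members and lists were chosen with earlier results of these data known. Genes named were the members, the targets, list genes past the threshold (up to 6, by p) or else the 2 most abundant, and the nearest profiles. Protein sequences were not analysed here. A result for 1 further gene is not reported here.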

Additional observations from a re-analysis of the deposited data

How the results depend on the processing

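The calls of the 9 genes (1 higher, 0 lower) were the same in all 12 alternative settings, though Dhx58 had no value with the filter of at least 1 CPM in 2 libraries and Ifih1 and Irf7 had one only with no filter. Estimates near 0 changed sign without being called: with scaling by library size alone Mavs was 0.03 and Ifnar1 0.04, and leaving out 1 library gave from -0.26 to 0.14 for Mavs and from -0.14 to 0.11 for Ifnar1. Without triple knockdown replicate 2 Mavs was 0.10 and Ifnar1 0.03. Over all genes, where 76 were called higher and 116 lower, DESeq2 gave 30 and 39, and library size alone gave 77 and 28 and moved the median log2 fold change of all genes by 0.081. Leaving out 1 library gave from 27 to 280 higher and from 17 to 334 lower genes. In the pathway lists, leaving out 1 library gave 0 to 1 higher among adaptors and kinases, 0 to 1 higher among receptors, Janus kinases and STATs, and 0 to 1 lower among negative regulators, in each case from the fit without shControl replicate 2. The replicate block, which rests on a number shared in the titles only, gave 75 higher and 97 lower genes and a log2 fold change of 1.46 for Irf9; same-numbered libraries had deviations that correlated at -0.032 across genes. The cause of these shifts was not tested. Depth limits Ifih1, Irf7 and Dhx58, which had at most 17 reads in a library.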
